A study of Mus musculus with 14 samples.

Results

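Cultured mouse BFU-E given compound OB at 100 µM were compared with BFU-E given the solvent DMSO. The comparison holds 6 of the 14 samples of the series, 3 RNA libraries with compound OB and 3 with DMSO, chosen by their labels and compared within replicate number. BFU-E (burst-forming unit-erythroid) are early progenitors of the red blood cell line, and these came from the fetal liver of C57BL/6 mice and were grown in a serum-free medium. No mutant allele, transgene or other agent is named for either group, and the embryonic age, the hours in culture and the structure of compound OB are not described in the labels. The rest of the series is a second set of 6 RNA libraries, in which 3 with compound PD at 3 nM have 3 DMSO controls of their own, and 2 chromatin samples that are not analysed here. Nothing in the labels says whether the 3 replicates are separate cultures or animals. P-values therefore measure only the spread between these samples, which may be technical.

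BFU-E respond to stem cell factor, which signals through the receptor Kit, and to erythropoietin, and glucocorticoids prolong their divisions before they mature. As they mature, cells replace GATA2 with GATA1 at many of their genes and turn to making heme, red cell membrane proteins and globin. The series asks which genes bear on BFU-E self-renewal and includes a CREB immunoprecipitation. CREB is a transcription factor that cyclic AMP switches on, and muscarinic acetylcholine receptors are among the receptors that can raise or lower cyclic AMP.

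The libraries carried RNAs of erythroid progenitors, and whether these set BFU-E apart from later stages was not tested. The 7 erythroid progenitor markers Kit, Gata1, Gata2, Klf1, Epor, Tfrc and Tal1 summed to 1155 to 1342 FPKM in DMSO and 1162 to 1245 FPKM with compound OB. Tfrc alone gave 363 to 736 FPKM over the 6 libraries and Kit 23.1 to 41.7 FPKM. FPKM scales the fragments of a gene by its length and by the size of the library, so levels can be compared between genes. Hepatocyte markers summed to at most 2.70 FPKM with Ttr at 0, lymphoid markers to at most 0.81 FPKM with Cd3e and Rag1 at 0, and macrophage markers to at most 4.37 FPKM with C1qb and C1qc at 0. Endothelial and stromal markers summed to at most 4.61 FPKM with Col3a1 at 0.

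Markers of 3 other blood lineages varied between libraries. Megakaryocyte markers (8 of 8 listed, none at 0) summed to 1400, 490.3 and 575 FPKM in DMSO replicates 1, 2 and 3 and to 1002, 599 and 638 FPKM with compound OB. Neutrophil markers (10 of 10, none at 0) summed to 580, 146 and 145 FPKM in DMSO and to 485, 165 and 180 FPKM with compound OB. Mast cell and basophil markers (9 of 9, none at 0) summed to 37.7, 8.84 and 11.6 FPKM in DMSO and to 17.0, 11.7 and 10.4 FPKM with compound OB. The number 1 libraries of both groups thus had the highest sum for each of these 3 lineages, and they also had the most Cdkn1a (321 and 227 FPKM against 67.4 to 81.9 FPKM in the other 4). Fewer cells of a type and less of its RNA per cell cannot be told apart in such bulk samples. DMSO replicate 2 stood apart in another way, with the ribosomal RNA precursor Rn45s at 12380 FPKM against 175 to 955 FPKM elsewhere, and the small noncoding RNAs Rmrp at 2069 FPKM against 11.2 to 51.5 FPKM and Rpph1 at 1285 FPKM against 10.96 to 44.8 FPKM. The part of these libraries in each result was not tested, and results that rest on one of them are given with and without it. The depth of the libraries is unknown, since FPKM does not keep the counts.

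Differences within a pair were no larger than most differences among the controls. Over the 7917 genes whose mean reached 5 FPKM, the median absolute difference on the log2(FPKM + 1) scale was 0.0755, 0.168 and 0.102 between compound OB and DMSO of numbers 1, 2 and 3. Between DMSO libraries it was 0.283 for replicates 1 and 2, 0.285 for replicates 1 and 3 and 0.108 for replicates 2 and 3, and between compound OB libraries it was 0.178, 0.226 and 0.0945. Libraries 1 of both groups were thus closer to each other than to the rest of their groups, while libraries 2 were closer to the libraries 3 of their own group than to each other. Across these genes the pair differences of numbers 2 and 3 correlated at r = 0.545, those of 1 and 2 at 0.228 and those of 1 and 3 at 0.284, a description across genes, which are not independent replicates.

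Few genes changed past the threshold. Of 10104 genes whose mean reached 1 FPKM, limma with the replicate number as a block called 7 at an adjusted p under 0.05 (0.0693% of genes tested), of which 4 rose (0.0396%) and 3 fell (0.0297%). With the 6 libraries taken as independent, limma called 0 of them (0%), with 372 genes at an unadjusted p under 0.05. The block held 1506 genes at an unadjusted p under 0.05 (14.9%), 994 higher (9.84%) and 512 lower (5.07%). Over all genes tested the median difference on the log2(FPKM + 1) scale was 0.03, and it was −0.02, 0.11 and 0.02 in pairs 1, 2 and 3. With 1 pair left out it lay between −0.00 (without replicate 2) and 0.06 (without replicate 1). Compound OB was higher in every pair for 2340 genes (23.2%) and lower in every pair for 1687 (16.7%), and these shares are the background for the gene lists described here. The 3 treated and 3 control values did not overlap for 882 genes (8.73%).

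Large differences lay on the rising side when every pair and a mean of 5 FPKM were required. Among the genes whose mean reached 5 FPKM, 7 had a log2 difference above 1 and 39 below −1, but only 6 exceeded 1 in every pair and 0 were below −1 in every pair. Among the called genes under that mean, Gm4070 (mean 4.14 FPKM) was below −1 in every pair, at −2.74, −2.52 and −1.91. The called gene 0610040J01Rik (mean 2.31 FPKM) was above 1 in every pair. The 6 were Mt2, Slc7a3, Cth, Pygl, Egln3 and Hif3a. They hold a metallothionein, an amino acid carrier, the enzyme that makes cysteine from cystathionine, glycogen phosphorylase, an oxygen-sensing prolyl hydroxylase and a hypoxia-inducible factor subunit. The counts depend on the exact cut. Examples that missed it narrowly in a single pair were Gstt2 (−1.38, −1.01 and −0.998) and H1f0 (−1.23, −0.96 and −1.21). On the rising side Tph1 did so (0.94, 1.74 and 1.48).

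**Figure D1:**
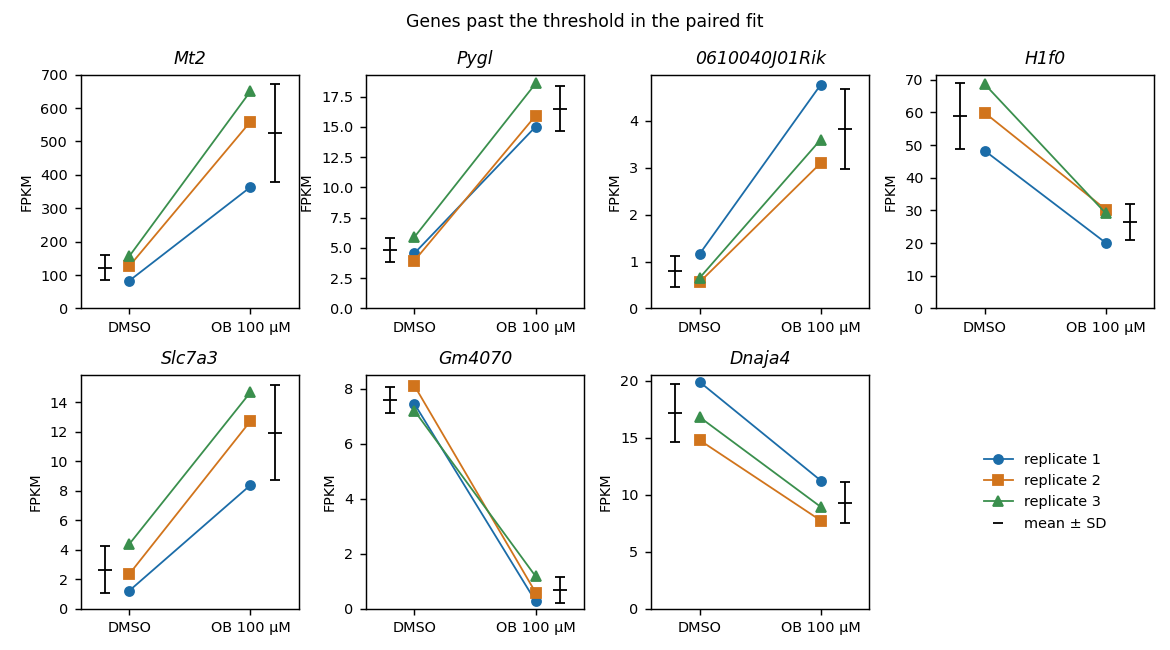
FPKM in each library (vertical axis, from 0) for the 7 genes past the threshold, with DMSO on the left and compound OB on the right, a line for each replicate number and bars for the mean and SD of 3 libraries. In each panel all 3 lines run the same way and the groups do not overlap, as for Mt2, at 82.9 to 156 FPKM in DMSO and 363 to 650 FPKM with compound OB.

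Mt2 encodes a metallothionein, a small cysteine-rich protein that binds zinc and copper, and its gene lies beside that of Mt1. Its promoter and that of Mt1 are shown because both genes stand among the 30 top-ranked genes, which are the 7 called and the next 23 by p whose mean reached 5 FPKM, and that of Pck2 because it holds one of the 2 amino acid response element matches among the 30. The windows come from RefSeq on GRCm38.p6, the assembly that mm10 names, and run from 250 bases before to 50 bases after the annotated start, all on the plus strand. Capitals mark matches on either strand. Those in Mt2 (chr8:94172368-94172667) and Mt1 (chr8:94178839-94179138) are to TGCNCNC, a broad form of the metal response element with any base at N. Those in Pck2 (chr14:55540016-55540315) are to the amino acid response element TGATGNAA.
Mt2: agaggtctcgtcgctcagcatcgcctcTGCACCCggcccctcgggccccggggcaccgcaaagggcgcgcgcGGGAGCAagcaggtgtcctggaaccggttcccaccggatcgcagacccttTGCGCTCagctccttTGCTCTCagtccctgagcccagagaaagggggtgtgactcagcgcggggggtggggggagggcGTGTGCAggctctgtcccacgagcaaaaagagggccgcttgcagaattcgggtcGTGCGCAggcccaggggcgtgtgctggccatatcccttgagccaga
Mt1: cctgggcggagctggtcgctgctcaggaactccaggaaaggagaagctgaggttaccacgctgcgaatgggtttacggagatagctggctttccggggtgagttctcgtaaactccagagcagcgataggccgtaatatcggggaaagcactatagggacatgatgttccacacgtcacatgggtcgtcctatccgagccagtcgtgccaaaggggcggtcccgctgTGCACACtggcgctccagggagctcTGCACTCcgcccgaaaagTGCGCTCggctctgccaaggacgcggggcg
Pck2: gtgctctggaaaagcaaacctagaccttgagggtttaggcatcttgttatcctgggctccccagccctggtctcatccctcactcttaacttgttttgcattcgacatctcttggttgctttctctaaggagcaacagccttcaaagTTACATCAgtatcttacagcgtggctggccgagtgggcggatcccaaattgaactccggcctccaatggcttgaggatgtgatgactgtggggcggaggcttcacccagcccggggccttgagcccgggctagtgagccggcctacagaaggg
The Mt2 window held 6 matches to TGCNCNC and the Mt1 window 3. Among the 32851 windows of the genome at least 1 such match was found in 51%, at least 3 in 7.1% and at least 6 in 0.225%. Of the 30 genes 27 had a window, and some had several start sites, which made 36 windows. A gene counts as holding a motif when any of its windows does, and the shares given beside the counts are those of the 7732 tested genes with a window, followed by those of all 32851 windows. TGCNCNC was held by 18 of the 27 genes (64.3% of tested genes, 51% of windows), TGATGNAA by 2 (2.5% and 3.97%) and the glucocorticoid response element ACANNNTGT by 3 (4.73% and 6.85%). None held the cyclic AMP response element TGACGTCA (3.96% and 1.79%), and 8 held its core TGACG (38% and 20.8%), which also lies within TGACGTCA. A match describes the letters of the window and is neither a binding site nor a cause.

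Mt2 measured 82.94, 126.55 and 156.32 FPKM in DMSO replicates 1, 2 and 3 and 363.44, 559.18 and 650.17 FPKM with compound OB. Every treated library lay above every control, and the pair differences were nearly equal at 2.12, 2.13 and 2.05. Mt2 rose by 2.10 on the log2(FPKM + 1) scale (SE 0.05, n = 3 pairs, limma adjusted p = 1.23e-04 with the block and 0.331 without), 4.30 times its level in DMSO. Its neighbour Mt1 measured 755.10, 617.33 and 860.56 FPKM in DMSO and 1133.45, 1183.29 and 1297.85 FPKM with compound OB. The Mt1 groups did not overlap either, but the gene missed the threshold (log2 0.71, SE 0.08, limma adjusted p = 0.0717). Of the 20 tested genes of metallothioneins and zinc transport, 1 rose, 6 were higher in every pair (30%) and 3 lower (15.0%), with a median of 0.05. Slc39a11, a zinc importer, measured 4.50, 4.52 and 6.09 FPKM in DMSO and 5.24, 8.12 and 7.88 FPKM with compound OB. Slc30a10, a metal exporter, measured 17.09, 19.97 and 22.20 FPKM and 15.67, 15.42 and 16.06 FPKM, without overlap.

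Pygl, the liver form of glycogen phosphorylase, releases glucose units from glycogen. It measured 4.56, 3.95 and 5.90 FPKM in DMSO and 15.02, 15.93 and 18.59 FPKM with compound OB. No library of one group reached the other, and Pygl rose by 1.60 (SE 0.09, n = 3 pairs, limma adjusted p = 0.0130 with the block, 0.114 without). Gys1, the glycogen synthase that works the opposite way, measured 5.15, 4.22 and 5.55 FPKM in DMSO and 7.89, 8.75 and 8.17 FPKM with compound OB (log2 0.64, SE 0.11, adjusted p = 0.137). Gbe1, the branching enzyme, measured 1.63, 1.75 and 2.06 FPKM and 2.60, 2.13 and 3.05 FPKM. Neither pair of groups overlapped. Of 16 tested glycogen genes, 6 were higher in every pair (37.5%) and 5 lower (31.2%), so the list as a whole had no single direction. Its median was 0.07, with pair medians of −0.00, 0.19 and 0.02, and it was 0.11 without replicate 1 and −0.01 without replicate 2.

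Slc7a3 carries arginine and lysine into cells. Its level was 1.22, 2.35 and 4.38 FPKM in DMSO and 8.38, 12.72 and 14.67 FPKM with compound OB, without overlap. It rose by 1.89 (SE 0.13, n = 3 pairs, limma adjusted p = 0.0172 with the block, 0.494 without). The uncharacterised 0610040J01Rik was low throughout, at 1.16, 0.56 and 0.65 FPKM in DMSO and 4.77, 3.10 and 3.60 FPKM with compound OB. It rose by 1.43 with pair differences of 1.42, 1.39 and 1.48 (SE 0.09, n = 3 pairs, limma adjusted p = 0.0172 with the block, 0.329 without).

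The 3 genes that fell encode a linker histone, a predicted gene and a co-chaperone. H1f0, the replacement linker histone that builds up in cells that stop dividing, measured 48.26, 59.86 and 68.61 FPKM in DMSO and 20.04, 30.26 and 29.07 FPKM with compound OB. The groups did not overlap and H1f0 fell by 1.13 (SE 0.08, n = 3 pairs, limma adjusted p = 0.0172 with the block, 0.494 without). Gm4070, a predicted gene, measured 7.46, 8.12 and 7.21 FPKM in DMSO and 0.27, 0.59 and 1.18 FPKM with compound OB. It fell by 2.39, more than any other called gene (SE 0.17, n = 3 pairs, limma adjusted p = 0.0181 with the block, 0.109 without), and similar copies in its family make its value uncertain. Dnaja4, which assists the heat shock protein HSP70, measured 19.91, 14.80 and 16.82 FPKM in DMSO and 11.25, 7.74 and 8.94 FPKM with compound OB. It fell by 0.82, again without overlap (SE 0.07, n = 3 pairs, limma adjusted p = 0.0433 with the block, 0.584 without).

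These calls depended on single pairs. Without replicate 3, 3 genes of all genes tested passed, and Pygl (adjusted p = 0.0658), 0610040J01Rik (0.152), H1f0 (0.161) and Dnaja4 (0.446) did not. Without replicate 1 limma called 1126 genes and without replicate 2 it called 147, each fit having 1 residual degree of freedom. Median-ratio scaling of the libraries, which moved the median of all genes from 0.03 to 0.01, raised the count with the block to 150 of 10094 (1.49%), of which 97 rose (0.961%) and 53 fell (0.525%). All 30 top-ranked genes passed with that scaling and kept their sign.

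**Figure D2:**
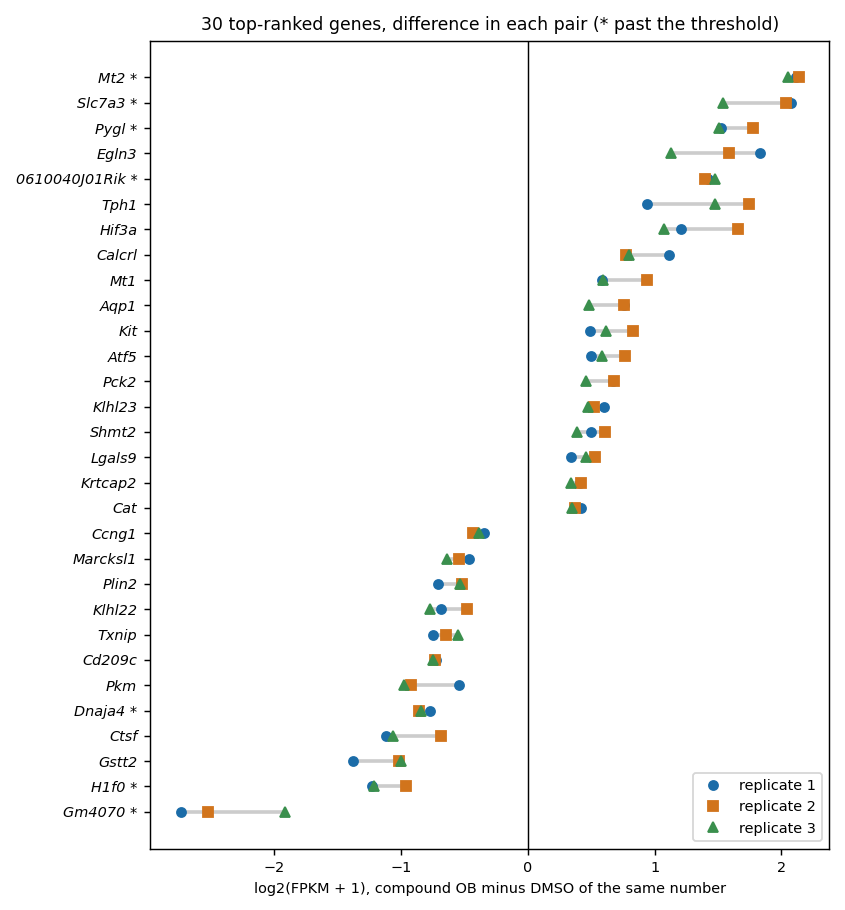
Differences on the log2(FPKM + 1) scale (horizontal axis) between compound OB and DMSO of the same number for the 30 top-ranked genes, one row a gene, with a marker for each replicate number and a grey line over their range. All 3 markers lie on the same side of 0 for each gene, from Mt2 (2.10 on average) to Gm4070 (−2.39).

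The next 23 genes by p, with means of 5 FPKM or more, had adjusted p from 0.0538 to 0.0914 and are described by their values. Egln3, a prolyl hydroxylase that marks hypoxia-inducible factors for destruction when oxygen is present, measured 3.47, 8.12 and 12.35 FPKM in DMSO and 14.93, 26.43 and 28.27 FPKM with compound OB (log2 1.52). Hif3a, a subunit of those factors, measured 8.16, 8.39 and 9.47 FPKM in DMSO and 20.14, 28.70 and 21.08 FPKM with compound OB (log2 1.31). Tph1, which hydroxylates tryptophan as the first step to serotonin, measured 155.16, 112.93 and 138.84 FPKM and 298.63, 380.10 and 387.87 FPKM (log2 1.39). All 3 had treated libraries above every control. Of the 10 tested genes of serotonin and histamine, only Tph1 was higher in every pair and 4 were lower (40.0%).

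Surface and signalling genes were among the 23. Kit, through which stem cell factor signals, measured 25.85, 23.07 and 23.17 FPKM in DMSO and 36.81, 41.70 and 35.98 FPKM with compound OB (log2 0.64, SE 0.08, adjusted p = 0.0892). Calcrl, the receptor subunit for adrenomedullin and calcitonin gene-related peptide, measured 2.70, 3.81 and 4.12 FPKM and 7.01, 7.25 and 7.88 FPKM (log2 0.90). Neither had overlapping groups. Aqp1, the red cell water channel, measured 19.28, 5.41 and 7.52 FPKM and 33.36, 9.86 and 10.89 FPKM (log2 0.67), and its groups overlapped because both number 1 libraries were high. Lgals9, which encodes a galectin, likewise overlapped, with pair differences of 0.34, 0.53 and 0.46.

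Metabolic enzymes among the 23 lay on both sides. Pkm, the pyruvate kinase of dividing cells, measured 409.66, 463.21 and 637.64 FPKM in DMSO and 281.66, 244.62 and 323.20 FPKM with compound OB (log2 −0.81, SE 0.09, adjusted p = 0.0717). Its treated libraries all lay below its controls, as did those of Plin2, which coats lipid droplets (133.95, 95.98 and 101.90 FPKM in DMSO and 81.65, 66.85 and 70.10 FPKM with compound OB). The glutathione transferase Gstt2 measured 11.15, 6.17 and 7.05 FPKM and 3.67, 2.55 and 3.03 FPKM, and the lysosomal protease Ctsf 11.31, 7.49 and 9.16 FPKM and 4.66, 4.27 and 3.87 FPKM, both without overlap. Catalase, Cat, which breaks down hydrogen peroxide, measured 135.91, 116.18 and 119.30 FPKM and 181.66, 150.75 and 151.81 FPKM. Txnip, which restrains glucose uptake and thioredoxin, measured 25.65, 11.55 and 10.99 FPKM and 14.91, 7.03 and 7.17 FPKM, with the number 1 libraries high in both groups. The remaining genes were Klhl23 (log2 0.53) and Krtcap2 (0.39) on the higher side and Cd209c (−0.73), Klhl22 (−0.64), Marcksl1 (−0.55) and Ccng1 (−0.39) on the lower, beside Atf5, Shmt2 and Pck2.

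Among the lists, the 3 with the largest shares of members higher in every pair bear on amino acid supply. When amino acids run short or unfolded protein builds up, the transcription factor ATF4 turns on genes for transporters, for serine and asparagine synthesis and for charging transfer RNA. Of 18 tested amino acid transporters, 13 were higher in every pair (72.2%, against 23.2% of all genes) and 0 lower, and 1, Slc7a3, passed the test. Their median difference was 0.34, and it was 0.25, 0.45 and 0.27 in pairs 1, 2 and 3. Slc7a5, the light chain of the main carrier of large neutral amino acids, measured 100.69, 68.17 and 70.34 FPKM in DMSO and 129.51, 129.61 and 101.13 FPKM with compound OB. Slc7a7, which exchanges cationic amino acids, measured 7.43, 6.45 and 6.87 FPKM and 10.73, 10.21 and 10.10 FPKM. Slc7a1, the widely expressed arginine carrier, measured 22.83, 27.96 and 27.01 FPKM and 29.99, 42.62 and 36.53 FPKM. The groups of these 3 genes did not overlap, although none passed the test (adjusted p = 0.117 to 0.155).

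ATF4 and its stress targets had 14 of 21 tested members higher in every pair (66.7%), 1 lower (4.76%) and none past the test, with a median of 0.25 (0.26, 0.20 and 0.16 in the 3 pairs). Cth, which makes cysteine, measured 4.60, 18.99 and 23.62 FPKM in DMSO and 32.55, 48.57 and 61.70 FPKM with compound OB. The groups did not overlap, and the pair differences of 2.58, 1.31 and 1.35 were largest in pair 1, whose control was the lowest (log2 1.75, SE 0.28, adjusted p = 0.162). Stc2, a secreted glycoprotein, measured 5.28, 10.38 and 12.45 FPKM and 12.48, 18.84 and 18.95 FPKM. Chac1, which degrades glutathione, measured 8.56, 9.59 and 11.57 FPKM and 16.47, 17.26 and 14.67 FPKM. Atf5, a transcription factor of the same response, measured 123.49, 60.70 and 63.72 FPKM and 174.40, 104.10 and 95.84 FPKM (adjusted p = 0.0717). Stc2 and Chac1 had no overlap between groups, while Atf5 was high in both number 1 libraries and overlapped.

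Serine, one-carbon and asparagine synthesis had 11 of 19 tested members higher in every pair (57.9%), 2 lower (10.5%), none past the test and a median of 0.17. Shmt2, which passes a carbon from serine to folate in mitochondria, measured 203.40, 183.23 and 194.64 FPKM in DMSO and 287.23, 279.36 and 255.40 FPKM with compound OB (log2 0.50, SE 0.06, adjusted p = 0.0717). Pck2, which makes phosphoenolpyruvate in mitochondria, measured 38.92, 39.04 and 41.71 FPKM and 62.49, 63.29 and 57.72 FPKM (log2 0.60, SE 0.07, adjusted p = 0.0717). Both had tight controls and no overlap. Pycr1 and Aldh18a1, which make proline, also had no overlap, at 4.57, 5.39 and 7.61 against 9.27, 9.32 and 8.52 FPKM for Pycr1 and pair differences of 0.24, 0.47 and 0.29 for Aldh18a1.

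The lists of cytosolic and mitochondrial enzymes that load amino acids onto transfer RNA had unlike counts, and the difference between the lists was not tested. FPKM of a gene cannot tell which compartment its enzyme serves. Of 20 cytosolic aminoacyl-tRNA synthetases 13 were higher in every pair (65.0%) and 0 lower, with a median of 0.15. Of 17 mitochondrial ones 5 were higher in every pair (29.4%, near the 23.2% of all genes) and 0 lower, with a median of 0.04 (0.07 without replicate 1, 0.01 without replicate 2). Gars, for glycine, measured 195.19, 194.57 and 216.06 FPKM in DMSO and 233.90, 237.31 and 245.18 FPKM with compound OB, without overlap. Wars, for tryptophan, measured 41.64, 29.77 and 31.84 FPKM and 43.29, 45.38 and 41.13 FPKM, with overlap. Neither passed the test.

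**Figure D3:**
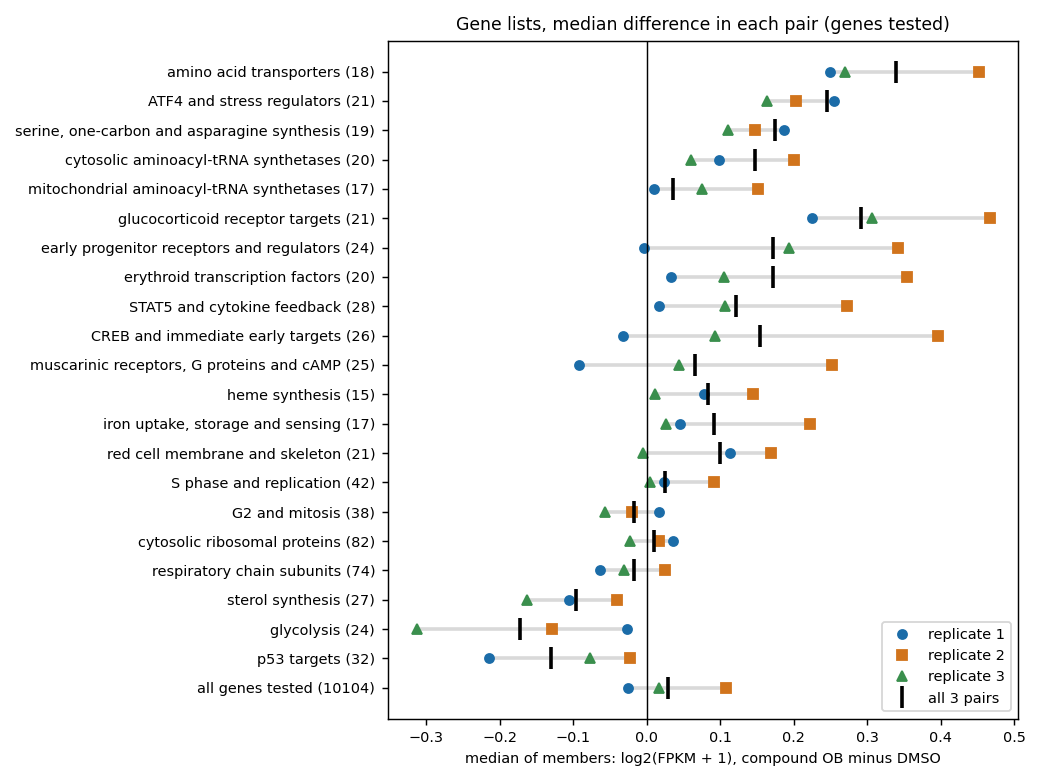
Median difference on the log2(FPKM + 1) scale (horizontal axis) of the tested members of 21 gene lists and of all genes tested, with a marker for each replicate number, a black bar for all 3 pairs and the number of genes tested in brackets. Amino acid transporters have the highest median (0.34) and glycolysis the lowest (−0.17) among the lists drawn, and all genes tested lie at 0.03.

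Glycolysis genes were mostly on the lower side. Of 24 tested, 13 were lower in every pair (54.2%, against 16.7% of all genes), 4 higher (16.7%) and none passed, with a median of −0.17. The pair medians were −0.03, −0.13 and −0.31, and without replicate 3 the median was −0.08. Pgk1, which makes ATP in glycolysis, measured 256.46, 546.45 and 765.37 FPKM in DMSO and 255.27, 318.56 and 432.44 FPKM with compound OB. Its level in DMSO replicate 1 was thus as low as in the treated library of that number, and the difference lay in pairs 2 and 3. Aldoc, a form of aldolase, measured 10.28, 11.52 and 14.31 FPKM and 8.65, 5.25 and 8.04 FPKM, without overlap. Hk1, the hexokinase that starts glycolysis, went the other way at 175.52, 99.49 and 112.26 FPKM and 233.42, 207.21 and 175.65 FPKM (log2 0.70, SE 0.12, adjusted p = 0.137).

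Hypoxia genes lay on both sides. Of 23 tested factors, sensors and targets 8 were higher in every pair (34.8%) and 4 lower (17.4%), with a median of −0.03 (−0.09 without replicate 1, 0.00 without replicate 2 or 3). The 8 were Hif1a, Hif3a, Arnt, Egln1, Egln2, Egln3, Hif1an and Bhlhe40, and the 4 were Bnip3, Bnip3l, Ankrd37 and Higd1a. No gene of the list passed the test, and a split of the list by role was not tested. Bnip3, a target that directs mitochondria to degradation, measured 33.02, 102.39 and 128.26 FPKM in DMSO and 24.72, 34.39 and 60.90 FPKM with compound OB (log2 −1.0, SE 0.21, adjusted p = 0.220). Ankrd37, another target, measured 3.14, 14.61 and 16.68 FPKM and 2.27, 6.11 and 8.72 FPKM (log2 −0.78, SE 0.16, adjusted p = 0.187). For both targets, as for Pgk1, the number 1 libraries of both groups were the lowest of their group.

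Sterol synthesis genes, which make cholesterol from acetate, were lower in every pair in 16 of 27 tested (59.3%) and higher in 2 (7.41%), with none past the test and a small median of −0.10. The pair medians were −0.11, −0.04 and −0.16, and the median was −0.15 without replicate 2. Fdft1, which makes squalene, measured 102.29, 98.56 and 110.12 FPKM in DMSO and 86.53, 83.66 and 85.82 FPKM with compound OB. Idi1, an isomerase of the pathway, measured 258.80, 266.19 and 270.78 FPKM and 240.78, 208.00 and 221.98 FPKM. Their groups did not overlap. Ebp, a sterol isomerase, had pair differences of −0.24, −0.24 and −0.25 but overlapping groups.

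Genes of the early progenitor state had positive differences in 20 of 24 tested, beside 5936 of all 10104 genes tested. Of the 24, 11 were higher in every pair (45.8%), 0 lower and 0 past the test, with a median of 0.17. The pair medians were −0.00, 0.34 and 0.19, and the median was 0.27 without replicate 1 and 0.07 without replicate 2. Gata2 measured 39.99, 20.97 and 23.69 FPKM in DMSO and 53.83, 43.74 and 35.97 FPKM with compound OB (log2 0.68, SE 0.12, adjusted p = 0.153). Zfp36l2, an RNA-binding protein of BFU-E self-renewal, measured 48.08, 30.69 and 31.07 FPKM and 54.36, 50.38 and 44.87 FPKM (log2 0.46, SE 0.11, adjusted p = 0.224). Both genes overlapped between groups because DMSO replicate 1 was high, and both were higher with compound OB within each number. Il1rl1, the interleukin 33 receptor, measured 4.90, 3.77 and 4.0 FPKM and 8.50, 5.77 and 5.90 FPKM, without overlap. Myb, a factor that holds progenitors in division, had pair differences of 0.23, 0.16 and 0.20 and overlapping groups.

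Erythroid transcription factors had 9 of 20 members higher in every pair (45.0%) and 0 lower, with a median of 0.17 (0.03, 0.35 and 0.10 in the pairs, 0.08 without replicate 2). Gata1 measured 184.70, 131.60 and 141.40 FPKM in DMSO and 174.61, 150.92 and 149.60 FPKM with compound OB, with the number 1 pair going down and the others up (log2 0.07, SE 0.07). Klf1, a factor of the globin genes, had pair differences of 0.02, 0.29 and 0.02. The differences of Klf3 (0.08, 0.55 and 0.18), Stat5a (0.08, 0.48 and 0.28), Mafk (0.08, 0.38 and 0.17) and Bcl11a (0.15, 0.34 and 0.32) were each largest in pair 2. Pair 2 is the one with the DMSO library that stood apart, and over all genes tested that pair had the highest median (0.11).

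Lists of the maturation programme had smaller medians than the early progenitor and erythroid factor lists (0.17 each). Without replicate 2 the medians of the early progenitor and erythroid factor lists were 0.07 and 0.08. Over all pairs 45.8% and 45.0% of their members were higher in every pair, and the difference between the lists was not tested. Heme synthesis had 6 of 15 genes higher in every pair (40.0%) and 2 lower (13.3%), with a median of 0.08 (0.03 without replicate 2). Iron genes had 7 of 17 higher (41.2%) and 3 lower (17.6%), with a median of 0.09 (0.06 without replicate 2, 0.17 without replicate 3). Red cell membrane genes had 8 of 21 higher (38.1%) and 3 lower (14.3%), with a median of 0.10 (0.06 without replicate 2, 0.16 without replicate 3). None of these genes passed the test. Hmox1, which breaks heme down, measured 86.43, 38.63 and 48.82 FPKM in DMSO and 129.78, 53.17 and 54.65 FPKM with compound OB. Tfrc, the transferrin receptor that brings in iron, measured 371.81, 692.84 and 736.43 FPKM and 363.19, 546.52 and 583.48 FPKM. Ncoa4, which delivers ferritin to lysosomes, measured 74.45, 76.26 and 78.91 FPKM and 61.19, 58.59 and 62.69 FPKM, without overlap (log2 −0.33, SE 0.05, adjusted p = 0.132). Sptb, the spectrin beta chain, had pair differences of 0.18, 0.65 and 0.27, and Epor, the erythropoietin receptor, 0.02, 0.45 and 0.14. The globin genes are not used in this set.

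Glucocorticoid receptor targets were higher in every pair in 12 of 21 tested (57.1%) and lower in 1 (4.76%), with a median of 0.29 (0.23, 0.47 and 0.31 in the pairs). The member that passed was Mt2, which metals also induce, and members such as Mt1, Zfp36l2 and Per1 stand in other lists too. Per1, a clock gene, measured 8.77, 4.37 and 4.65 FPKM in DMSO and 11.44, 8.32 and 7.77 FPKM with compound OB, with overlap (log2 0.59, SE 0.11, adjusted p = 0.155). Nr3c1, the receptor itself, measured 10.86, 15.70 and 16.52 FPKM and 13.86, 18.76 and 20.67 FPKM, higher in each pair by 0.24 to 0.33 (adjusted p = 0.226).

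CREB and immediate early targets had 9 of 26 tested members higher in every pair (34.6%) and 4 lower (15.4%), with none past the test. Their median was 0.15, with pair medians of −0.03, 0.40 and 0.09, and it was 0.24 without replicate 1 and 0.03 without replicate 2. Creb1 measured 6.79, 12.40 and 12.66 FPKM in DMSO and 7.68, 11.78 and 11.49 FPKM with compound OB, with pair differences on both sides of 0. Crem, a related factor that cyclic AMP induces, measured 8.55, 6.91 and 9.54 FPKM and 6.59, 6.45 and 7.41 FPKM (log2 −0.25, SE 0.09, adjusted p = 0.307). Ier3, an immediate early gene, measured 6.62, 6.23 and 6.22 FPKM and 5.30, 3.70 and 3.28 FPKM, without overlap, and Egr1 and Per2 had pair differences of 0.08, 0.56 and 0.31 and of 0.31, 0.58 and 0.44.

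Muscarinic receptor RNA was low or listed at 0 in these libraries. Chrm4 was the one receptor above the filter, at 2.19, 0.77 and 1.13 FPKM in DMSO and 1.39, 0.61 and 0.76 FPKM with compound OB (log2 −0.28, SE 0.11, adjusted p = 0.329). Chrm1 lay between 0.01 and 0.05 FPKM, Chrm3 reached at most 0.02 FPKM, and Chrm2 and Chrm5 were listed at 0. Ache, the acetylcholine-splitting enzyme, measured 19.02, 6.26 and 6.66 FPKM and 10.47, 5.38 and 4.84 FPKM, lower in each pair and high in both number 1 libraries. Of 25 tested genes of the receptors, their G proteins and cyclic AMP, 2 were higher in every pair (8.0%) and 4 lower (16.0%), both below the share of all genes, with a median of 0.07 and pair medians of −0.09, 0.25 and 0.04. Without replicate 2 that median was 0.01 and without replicate 1 it was 0.15 for these 25 genes.

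The p53 targets, induced by DNA damage and other stress, were lower in every pair in 14 of 32 tested (43.8%) and higher in 3 (9.38%), with none past the test and a median of −0.13 (−0.05 without replicate 1). Ccng1, an atypical cyclin, measured 208.61, 116.51 and 120.11 FPKM in DMSO and 163.95, 85.99 and 92.01 FPKM with compound OB (log2 −0.39, SE 0.05, adjusted p = 0.0858). Mdm2, which degrades p53, measured 68.44, 39.60 and 46.69 FPKM and 50.85, 32.92 and 33.51 FPKM (log2 −0.38, SE 0.07, adjusted p = 0.145). Cdkn1a, the cell cycle inhibitor p21, measured 320.83, 76.05 and 81.90 FPKM and 227.04, 68.37 and 67.45 FPKM (log2 −0.31, SE 0.08, adjusted p = 0.237). In all 3 genes both number 1 libraries exceeded the other 4, so the groups overlapped while each pair was lower.

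Cell cycle genes showed no common direction. S phase and replication genes were higher in every pair in 13 of 42 (31.0%) and lower in 6 (14.3%), with a median of 0.03 (0.00 without replicate 2, 0.06 without replicate 3). G2 and mitosis genes were higher in 5 of 38 (13.2%) and lower in 8 (21.1%), with a median of −0.02 (−0.04 without replicate 1, 0.02 without replicate 3). Pold1 and Pold2, subunits of DNA polymerase delta, had pair differences of 0.17, 0.59 and 0.30 and of 0.12, 0.64 and 0.34 without overlap. Of 19 cyclin, kinase and inhibitor genes 6 were higher (31.6%) and 5 lower (26.3%). Cdk6 measured 6.74, 12.11 and 12.40 FPKM in DMSO and 8.63, 18.13 and 15.34 FPKM with compound OB, and E2f1, which drives entry to S phase, 25.04, 20.22 and 20.31 FPKM and 26.55, 25.76 and 25.82 FPKM.

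Histone transcripts were lower with compound OB, and most of that difference lay in pair 2. Replication-dependent histone RNAs end in a stem-loop without a poly(A) tail, and close copies make the values of single genes uncertain. Of 53 core histone genes, 22 were lower in every pair (41.5%), 0 higher and 0 past the test, with a median of −1.07. The pair medians were −0.11, −2.87 and −0.36, and the median was −1.67 without replicate 1 and −0.35 without replicate 2. Hist1h4h measured 4.45, 61.23 and 4.70 FPKM in DMSO and 2.32, 3.53 and 0.79 FPKM with compound OB. Hist2h2bb measured 1.43, 55.90 and 5.48 FPKM and 1.25, 1.56 and 0.53 FPKM. Both were high in DMSO replicate 2, the library with the most Rn45s, Rmrp and Rpph1. Of 6 linker histones 1, H1f0, fell and 4 were lower in every pair (66.7%). The others followed replicate 2 in part: Hist1h1b measured 1.49, 25.98 and 1.28 FPKM and 0.63, 2.10 and 0.47 FPKM, while Hist1h1c measured 79.64, 64.56 and 31.53 FPKM and 41.45, 25.89 and 24.22 FPKM. H1f0 itself was not highest in DMSO replicate 2, and its difference was −1.22 without that pair.

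STAT5 targets and cytokine feedback genes had positive differences in 22 of 28 tested, beside 5936 of all 10104 genes tested. Of the 28, 13 were higher in every pair (46.4%) and 2 lower (7.14%), none passed, and the median was 0.12. Socs1, which inhibits cytokine receptors, measured 4.50, 2.51 and 2.56 FPKM in DMSO and 6.13, 6.44 and 5.44 FPKM with compound OB, without overlap (log2 0.77, SE 0.15, adjusted p = 0.175). Spry1, which dampens signals from receptor kinases such as Kit, measured 9.60, 3.38 and 3.55 FPKM and 13.28, 7.28 and 6.30 FPKM, with overlap (log2 0.68, SE 0.11, adjusted p = 0.133). Id1, an inhibitor of basic helix-loop-helix factors, had pair differences of 0.28, 0.69 and 0.35. Interferon genes were higher in every pair in 3 of 20 (15.0%) and lower in 6 (30%), with Isg20 at 0.32, 0.57 and 0.39 and Isg15 at −0.30, −0.61 and −0.34.

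Chaperones other than Dnaja4 showed little difference. Of 28 cytosolic heat shock genes 1 fell, 4 were higher in every pair (14.3%) and 7 lower (25.0%), with a median of −0.00. Of 25 endoplasmic reticulum chaperones 5 were higher (20.0%) and 2 lower (8.0%), with a median of 0.04 (0.06 without replicate 1, −0.00 without replicate 2). Ern1, the sensor of unfolded protein in that compartment, measured 6.48, 6.70 and 8.26 FPKM in DMSO and 10.71, 12.56 and 11.26 FPKM with compound OB, without overlap (log2 0.62, SE 0.10, adjusted p = 0.131). NRF2 targets and peroxide-clearing genes were higher in 10 of 32 (31.2%) and lower in 7 (21.9%), lysosome genes in 6 and 6 of 29 (20.7% each), and BCL2 family genes in 2 (13.3%) and 3 (20.0%) of 15. Among large complexes, ribosomal protein genes had 18 of 82 higher (22.0%) and 10 lower (12.2%) with a median of 0.01, and respiratory chain genes 10 of 74 higher (13.5%) and 24 lower (32.4%) with a median of −0.02. Dnaja4 was the one gene of these 7 lists past the test.

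The other RNA set of the series, BFU-E with compound PD at 3 nM, served to show where the response to compound OB differed. Compound, dose and set cannot be told apart in it. Same-numbered libraries of the PD set did not deviate together from their group means (r = −0.025, −0.057 and −0.028 over 8960 genes), so the numbers do not pair them. PD DMSO replicate 1 stood apart, with 121376 FPKM of the globin Hbb-bs against 58074 and 60397 FPKM in the other PD controls and 40841 to 70026 FPKM with compound PD. Over 9285 genes tested in one limma fit of 12 libraries, with the replicate numbers of both sets as 6 blocks, 0 had a difference of responses at an adjusted p under 0.05 (0%), and 826 had an unadjusted p under 0.05 (8.9%). With the block in the OB set and none in the PD set, a fit chosen after those correlations were seen, 0 passed (0%), with 689 at an unadjusted p under 0.05. With PD DMSO replicate 1 also left out, 183 of 9301 passed (1.97%), 95 with a higher response to compound OB (1.02%) and 88 with a lower one (0.946%). The count thus moved with that 1 library, and leaving out other single PD libraries was not tried.

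Mt2 measured 35.19, 80.67 and 55.77 FPKM in the PD controls and 33.10, 77.60 and 89.53 FPKM with compound PD, with overlap. Its log2 response was 0.18 to compound PD and 2.10 to compound OB, a difference of 1.92 (SE 0.22, limma adjusted p = 0.108 with 6 blocks). With the block in the OB set the SE was 0.49 (adjusted p = 0.337), and without PD DMSO replicate 1 the difference was 2.23 (adjusted p = 0.0551). Pkm, a pyruvate kinase, measured 200.22, 217.06 and 228.93 FPKM in the PD controls and 451.58, 319.78 and 319.12 FPKM with compound PD, without overlap. Its responses were 0.73 and −0.81 in the PD and OB sets, a difference of −1.55 (SE 0.21, adjusted p = 0.108 with 6 blocks, 0.0867 with the block in the OB set and 0.0130 without PD DMSO replicate 1). Slc7a3 had responses of −0.42 and 1.89 (difference 2.31, SE 0.49, adjusted p = 0.204), from low PD controls of 1.70, 5.61 and 0.39 FPKM.

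Pygl measured 28.07, 45.06 and 47.33 FPKM in the PD controls and 75.12, 71.19 and 72.17 FPKM with compound PD, without overlap and lowest in DMSO replicate 1. Its response was 0.88 against 1.60 to compound OB (difference 0.72, SE 0.24, adjusted p = 0.393), and without PD DMSO replicate 1 the difference was 0.96 (SE 0.14, adjusted p = 0.0172). Kit measured 20.38, 21.82 and 22.66 FPKM in the PD controls and 41.19, 28.83 and 27.06 FPKM with compound PD, without overlap, the highest value being that of compound PD replicate 1, the library with the least Hbb-bs. Its responses were 0.54 and 0.64 in the PD and OB sets, a difference of 0.11 (SE 0.23, adjusted p = 0.963), and 0.15 (SE 0.22) without PD DMSO replicate 1. Lgals9 had responses of 0.46 and 0.44 (difference −0.02, SE 0.18, adjusted p = 0.997). A p that misses the threshold does not show that the responses of Kit and Lgals9 were alike.

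**Figure D4:**
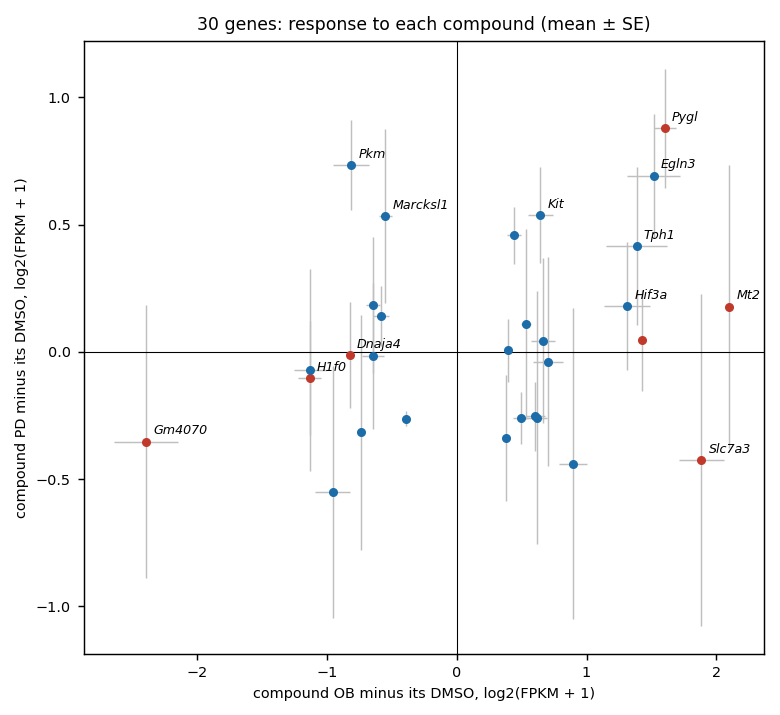
Response to compound OB (horizontal axis, mean and SE of 3 pair differences) and to compound PD (vertical axis, difference of the means of 3 unpaired libraries a group, with its SE) on the log2(FPKM + 1) scale, for the 30 top-ranked genes of the OB comparison, with the 7 past its threshold in red. Mt2 lies at 2.10 and 0.18, Pkm at −0.81 and 0.73 and Kit at 0.64 and 0.54. No difference between the axes passed the test with all 12 libraries. That test left out 0610040J01Rik and Cd209c, whose means in the PD set were under 1 FPKM.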

How the data were processed

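RNA was measured in 12 libraries, of which the 6 of the OB set are described here. The authors deposited FPKM values with 2 decimals. The submitters' processing notes name STAR and mm10. The program behind the FPKM values, its annotation and its use of strand are not given, so antisense, overlapping and near-identical genes have uncertain values. Of 24054 names, 380 cut at a hyphen (the globin and H2 genes among them) and 27 turned into dates were left out, leaving 23647. In the PD set 27 dates and 185 rows of repeated symbols were left out of 54752, leaving 54540.

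Compound OB was compared with its DMSO by limma 3.58.1 (R 4.3.3, with statmod 1.5.0), using trend and robust moderation and the replicate number as a block. The fit used log2(FPKM + 1), which understates changes of low genes, for genes whose mean reached 1 FPKM. The response to compound PD is a difference of means without a test of its own. It entered limma only in the difference between the responses to both compounds. P-values were two-sided and Benjamini-Hochberg adjusted over all genes tested. Same-numbered libraries deviated together from their group means (r = 0.837, 0.456 and 0.708 over 7917 genes), and the numbers were kept as the block. Libraries of unlike number gave 0.399 (DMSO 2 with compound OB 3) and 0.279 (DMSO 3 with compound OB 2). Those with 1 library of number 1 gave −0.529 to −0.734. The number 2 pair at 0.456 was thus little set apart from DMSO 2 with compound OB 3. In the PD set same-numbered libraries did not deviate together (r = −0.025, −0.057 and −0.028 over 8960 genes). The difference between the sets was therefore also fitted with the block in the OB set alone. The fit of compound OB with the block was tested on simulated data with normal noise of the same size in every gene. The simulated noise held no library that stood apart, and the other fits were not tested in this way. Gene lists (42) are described by counts and medians without a test. The members and lists were chosen with earlier results of these data known. Named are the genes past the threshold, those of smallest p with a mean of at least 5 FPKM up to 30 in all, up to 4 members per list with a mean of at least 2 FPKM that moved one way in every pair, by size, and regulators chosen by name. Promoter windows and motifs were read from RefSeq in Python 3.11.15 (numpy 2.4.6, pandas 2.3.3), and matplotlib 3.10.9 drew the figures.

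FPKM carry no counts. Depth and counting error are therefore unknown, and the spread over 3 libraries is the precision. Alternatives were the fit without the block, other pseudocounts, filters, scalings and moderation, and each replicate left out. Chromatin samples were not analysed here.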

Additional observations from a re-analysis of the deposited data

How the results depend on the processing

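The count of genes past the threshold after compound OB was 7 with the replicate block and 0 without a replicate block (372 at an unadjusted p under 0.05). With the block it was 4 at a pseudocount of 0.1 and 8 at a pseudocount of 5, 1 without a filter (16542 genes tested), 4 with a mean of at least 5 FPKM required, 150 with median-ratio scaling, 98 with quantile normalization and 3 without trend and robust moderation. Leaving out one pair gave 3 to 1126 genes: 1126 without replicate 1, 147 without replicate 2 and 3 without replicate 3. A fit of 2 pairs has 1 residual degree of freedom, and the cause of these moves was not tested. For the difference between the responses to compounds OB and PD the count was 0 without a replicate block (507 at an unadjusted p under 0.05, smallest adjusted p 0.0901), 0 under the other planned settings and 0 to 118 with one replicate number left out of both sets, the 118 without replicate 1. Of 2 settings added after seeing the data, the replicate block in the OB set gave 0, and 183 when PD DMSO replicate 1 was also left out. Genes higher in every pair numbered 2587 to 4706, and genes lower in every pair 2137 to 3013, with 1 pair left out, when 2 pairs rather than 3 have to agree in sign. The 30 top-ranked genes were chosen by p in these data, and each had all 3 pair differences on one side of 0. Their sign could therefore change only with the scaling of the libraries. It held with median-ratio scaling and with quantile normalization. Of these genes 30 passed with median-ratio scaling, 30 with quantile normalization, 0 without the block and 30, 28 and 3 without replicates 1, 2 and 3. Unknown depth leaves the error of low FPKM values unstated.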

Other observations

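With median-ratio scaling and the block, 150 genes passed the threshold of limma, all in the same direction in every pair. They hold the 7 genes called without that scaling and 120 genes beyond the 30 top-ranked genes, 79 higher and 41 lower, and 96 of the 150 were also called with quantile normalization. The genes named here are the 10 of smallest p among the 120 and were chosen after their values were seen. Arhgef3 measured 2.43, 1.36 and 1.64 FPKM in DMSO and 5.37, 3.79 and 4.88 FPKM with compound OB (limma adjusted p = 0.00512 with that scaling, 0.0538 without). Tns1, a tensin of focal adhesions, measured 3.71, 2.36 and 2.08 FPKM and 7.04, 7.50 and 5.88 FPKM (limma adjusted p = 0.00630 with that scaling, 0.0722 without). Parvg, a parvin of blood cells, measured 12.50, 6.93 and 8.49 FPKM and 18.41, 15.63 and 16.23 FPKM, and Myo1d, a myosin, 7.95, 4.52 and 4.81 FPKM and 12.50, 9.77 and 7.97 FPKM. In these 4 genes every treated library lay above every control.

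The other 6 were Klf5, Cpne5, Glrp1, Hk1, Tctex1d2 and Gstt1. Klf5, a zinc finger transcription factor, measured 1.96, 2.10 and 1.89 FPKM in DMSO and 4.31, 5.21 and 3.87 FPKM with compound OB. Gstt1, a glutathione transferase of the same class as Gstt2, measured 25.06, 11.65 and 10.84 FPKM and 11.07, 7.58 and 6.19 FPKM, with overlap through DMSO replicate 1. Tctex1d2, a dynein light chain, measured 17.23, 13.54 and 16.73 FPKM and 8.08, 9.31 and 9.74 FPKM, without overlap. Cpne5 and Glrp1 were higher with log2 differences of 1.02 and 0.96.

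Lars2, a mitochondrial aminoacyl-tRNA synthetase, was also picked after its values were seen. It measured 734.41, 3286.58 and 182.68 FPKM in DMSO and 754.86, 341.16 and 83.53 FPKM with compound OB, highest in DMSO replicate 2, the library with the most Rn45s, while the other tested mitochondrial synthetases had means of at most 60.4 FPKM in either group.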
